A study of Homo sapiens with 6 samples.

Results

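The genes examined were 9 genes of neurotrophin signalling and of the secretory granules of neurons and endocrine cells, *BDNF*, *VGF*, *SCG2*, *SCG5*, *CHGA*, *CHGB*, *PCSK1*, *STC1* and *SYP*. They were chosen by gene name as classic neuronal targets of the transcription factor CREB, and all 9 were among the 26025 genes of the table. RNA was sequenced from NCI-H1299, a long-established line of human non-small cell lung cancer, in 3 Ctrl and 3 NE-treated cultures. The NE-treated cultures received 10 µM norepinephrine (NE) for 48 h in medium with 2% serum, and the Ctrl cultures received vehicle only, named as DMSO in the titles of the samples and as PBS in their treatment notes. All cultures had been starved in DMEM for 8 to 12 h beforehand. Every library came from 1 cell line, and the labels do not say that the replicates were grown on separate days, so p-values measure the spread between these libraries only.

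NE binds adrenergic receptors, and their coupling to adenylyl cyclase raises cAMP, which activates protein kinase A and in turn CREB. CREB binds a short palindrome in promoters, the cAMP response element (CRE). In neurons this pathway is known for inducing *BDNF* and several granule genes. Dense-core granules store peptide hormones together with granins, acidic proteins that are both packing material and precursors of peptides, and the prohormone convertases cut those precursors inside the granule. Chromogranins and synaptophysin are used in pathology to recognise neuroendocrine tumours of the lung.

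Promoter sequences are shown first, because the CRE was what the 9 genes were said to share. RefSeq windows on GRCh38.p14 were given for 6 of the 9 genes, *BDNF*, *VGF*, *SCG5*, *CHGA*, *PCSK1* and *SYP*. In the 250 bases upstream of each start site, both strands were searched for the full CRE, TGACGTCA, and for its core, TGACG or CGTCA, which also lies inside the full CRE. The full CRE was present in a window of *VGF* (-79 to -72), *CHGA* (-54 to -47) and *PCSK1* (-77 to -70, 1 of its 2 windows), against 1.65% of all 35116 windows. The core alone was present in 1 of the 5 windows of *BDNF*, at -47, and in *SCG5*, at -17. The core, alone or inside the full CRE, was present in 21.2% of all windows, and 1 of 5 for *BDNF* is near that share. The 9 genes were chosen as CREB targets, so a CRE in their promoters is not a separate result. *SYP* held neither in its window. The 110 bases before the start site are given here for the 3 genes with the full CRE and for the *BDNF* start site with the core, 5′ to 3′ on the strand of the gene, which is plus for *CHGA* and minus for the other 3. Capitals mark the full CRE or the core.

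*VGF*, chr7:101165570-101165679: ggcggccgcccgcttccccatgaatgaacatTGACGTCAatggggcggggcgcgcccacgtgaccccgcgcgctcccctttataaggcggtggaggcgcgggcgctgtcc
*CHGA*, chr14:92923040-92923149: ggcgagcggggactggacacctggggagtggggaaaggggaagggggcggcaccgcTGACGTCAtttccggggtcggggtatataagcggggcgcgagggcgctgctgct
*PCSK1*, chr5:96433249-96433358: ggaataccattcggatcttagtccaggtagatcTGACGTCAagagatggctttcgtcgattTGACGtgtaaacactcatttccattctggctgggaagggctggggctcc
*BDNF*, chr11:27701622-27701731: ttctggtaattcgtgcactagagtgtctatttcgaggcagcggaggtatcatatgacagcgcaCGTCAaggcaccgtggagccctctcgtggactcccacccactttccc

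The table held between 16852751 and 17979206 reads on genes per library. Values are given as normalized counts, reads divided by 1 size factor per library. Ctrl replicate 3 stood apart, with 7305 genes at 0 against 4829 and 4833 in the other Ctrl libraries and 3954 to 4416 in the NE libraries. Of the markers of the line, *VIM* (45300 to 78252 normalized counts), *KRT8* and *KRT18* were abundant, and *EPCAM* and *KRT19* stood below 10 in every library. Of the markers of other cell types, *CD68* and *ALB* stood below 3 normalized counts, and *PECAM1* and *COL1A1* between 7 and 37, while *PTPRC* and *CD3E* were not analysed here. *KRT8*, *KRT18* and *COL1A1* were called lower in NE by the test given below, at log2 fold changes of -1.06, -1.62 and -1.26, and their part in the other results was not tested. With the trend of each library on GC content removed, the values were -0.59, -1.15 and -0.68, and only *KRT18* stayed called. *COL1A1* reached the mean of 10 that the test required only through its Ctrl libraries (mean 23.5 in Ctrl and 9.20 in NE). The lineage factors *NEUROD1* and *INSM1*, used to class neuroendocrine lung cancers, and the lineage factor *POU2F3* stood below 6 normalized counts in every library. Other neuroendocrine markers were counted higher. *UCHL1* stood at 6698 to 13576 normalized counts, *ENO2* at 403 to 729, *DLL3* at 114 to 325 and *TUBB3* at 32.3 to 131. The lineage factors *PROX1* and *ISL1* stood at 20.7 to 125 and 18.8 to 54.9, while *NCAM1* stood at 0 to 6.92. Granule gene transcripts were thus counted in both groups beside near-zero counts of some neuroendocrine markers and higher counts of others.

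Comparison between Ctrl and NE-treated cells asked which of the 9 genes differed after NE. Differences were tested with limma on log2(normalized count + 1) over 15013 genes whose mean reached 10, and a gene was called where the Benjamini-Hochberg adjusted p was under 0.05 and the log2 fold change at least 1 in size. *STC1*, *BDNF*, *SCG2* and *PCSK1* were significantly upregulated in NE-treated cells. In bulk RNA, a change in each cell and a change in the share of cells that carry a transcript cannot be told apart. Across all tested genes, 7.47% were called higher and 6.55% lower. No member was called lower by limma, edgeR, DESeq2 or voom. Only *VGF* was lower at an adjusted p under 0.05 in limma, as were 25.5% of all tested genes. The difference of *VGF* was smaller than the fold set for a call. *CHGB* and *SYP* did not pass the test, and *SCG5* and *CHGA* were below the mean of 10. *PCSK1* reached the mean of 10 only through its NE libraries, so its presence among the tested genes already required a difference. The other 6 tested members split, with *STC1*, *SCG2* and *BDNF* at log2 fold changes from 2.26 to 3.07. *CHGB*, *SYP* and *VGF* lay from -0.78 to 0.15. The median of the 6, 1.21 against 0.01 over all genes tested, fell in the gap between these and describes no member.

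**Figure D1:**
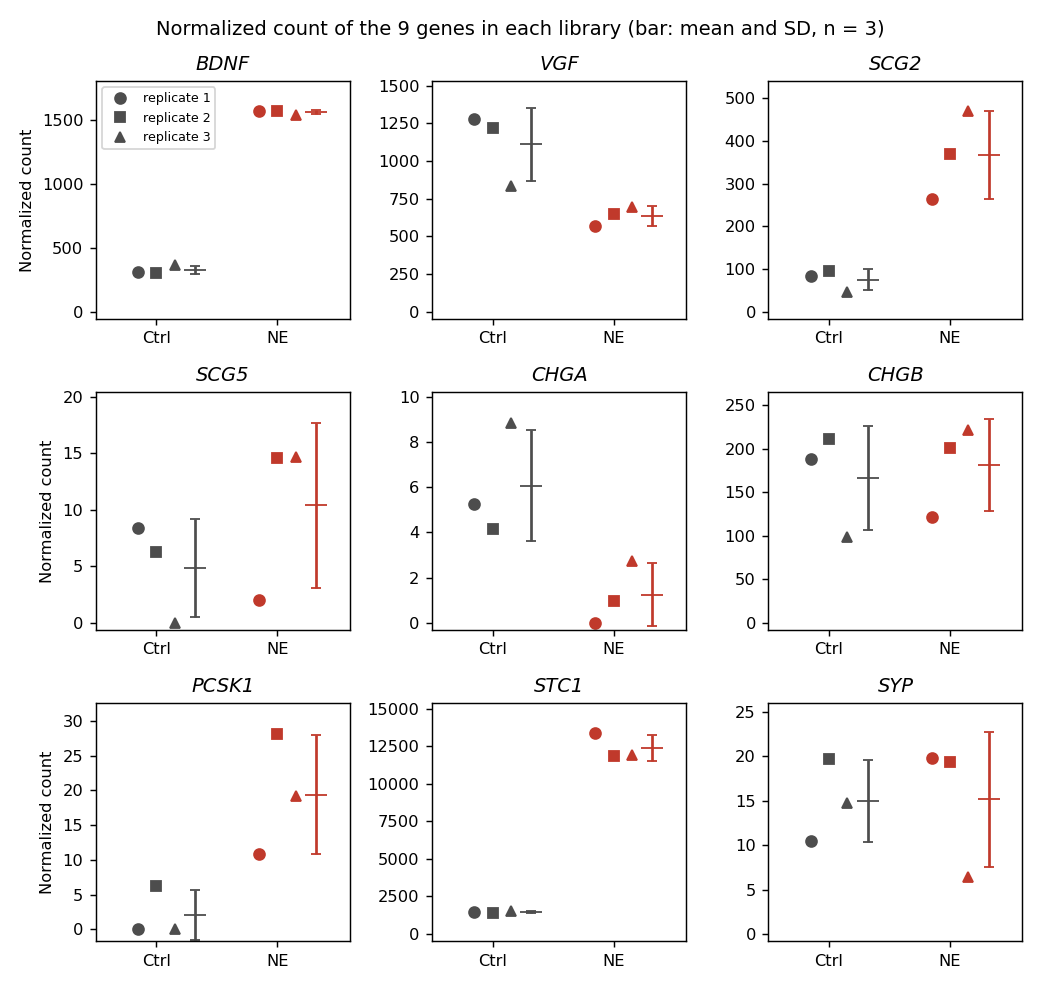
Normalized count of each of the 9 genes (vertical axis, linear, a scale of its own per gene) in the 3 Ctrl and 3 NE libraries (horizontal axis), with the mean and SD (n = 3) to the right of each group. The NE libraries lie above every Ctrl library for *BDNF*, *SCG2*, *PCSK1* and *STC1* and below every Ctrl library for *VGF* and *CHGA*, and the groups overlap for *SCG5*, *CHGB* and *SYP*.

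*STC1* (ENSG00000159167; chromosome 8, 23841929 to 23854806, minus strand; all gene positions are those of GENCODE v44 on hg38) encodes stanniocalcin 1, a secreted glycoprotein hormone first known from calcium balance in fish. It was counted at 1438, 1429 and 1529 in the Ctrl libraries and at 13361, 11830 and 11893 in the NE libraries. The 3 NE libraries were all above the 3 Ctrl libraries, and the libraries within each group lay close together. The mean rose from 1465 ± 55.2 to 12361 ± 866 (SD, n = 3 per group), an 8.44-fold increase, with a log2 fold change of 3.07 ± 0.10 (SE) and an adjusted p of 3.53e-07 in limma.

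*BDNF* (ENSG00000176697; chromosome 11, 27654893 to 27722058, minus strand) encodes brain-derived neurotrophic factor, the neurotrophin that signals through the receptor kinase TrkB and the low-affinity receptor p75. Its counts were 307.9, 306.9 and 365.5 in Ctrl and 1570.2, 1575.8 and 1544.3 in NE-treated cells. No NE library came near the Ctrl range, and the 3 NE libraries differed little. The mean rose from 327 ± 33.5 to 1563 ± 16.8, a 4.78-fold increase, with a log2 fold change of 2.26 ± 0.12 and an adjusted p of 5.2e-06 in limma. *BDNF-AS*, an antisense gene, shares 988 exon bases with *BDNF* on the opposite strand, and the sources used here do not say whether the counting used strand. *BDNF-AS* was counted at 7.33, 15.6 and 10.8 in Ctrl and at 23.7, 14.5 and 8.22 in NE libraries, so its groups overlapped (log2 fold change 0.37, adjusted p = 0.574 in limma).

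*SCG2* (ENSG00000171951; chromosome 2, 223596940 to 223602361, minus strand) encodes secretogranin II, a granin and the precursor of the peptide secretoneurin. Its counts were 83.8, 95.4 and 47.0 in Ctrl and 262.8, 369.0 and 468.8 in NE-treated cells. The groups did not overlap, although the NE libraries spread more widely than those of *BDNF*. The mean rose from 75.4 ± 25.2 to 367 ± 103, a 4.87-fold increase, with a log2 fold change of 2.29 ± 0.29 and an adjusted p of 0.000396 in limma. Without Ctrl replicate 3, which held the lowest *SCG2* count, the log2 fold change was 1.99.

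*PCSK1* (ENSG00000175426; chromosome 5, 96390333 to 96434143, minus strand) encodes prohormone convertase 1/3, the protease that begins to cut prohormones in the granule. It was listed at 0 in Ctrl replicates 1 and 3, at 6.22 in Ctrl replicate 2, and at 10.9, 28.1 and 19.2 in the NE libraries. All NE libraries were above all Ctrl libraries, but at few reads. Summed over libraries and scaled, the 61 reads of NE against the 6 of Ctrl gave a 9.52-fold ratio with an exact 95% interval from 4.13 to 27.0, which covers counting error only. The limma log2 fold change was 3.30 ± 0.91 with an adjusted p of 0.0144. The call was lost without NE replicate 2 (adjusted p = 0.0785) and without NE replicate 3 (adjusted p = 0.0593), and the adjusted p ranged from 0.004 to 0.0785 over all 20 alternatives.

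*VGF* (ENSG00000128564; chromosome 7, 101162509 to 101165569, minus strand) encodes a neurosecretory protein that was found as a gene induced by nerve growth factor and is the precursor of several peptides. It was counted at 1277.6, 1221.6 and 832.9 in Ctrl and at 566.2, 647.9 and 693.6 in NE-treated cells. All 3 NE libraries were below all 3 Ctrl libraries, and Ctrl replicate 3 was the lowest of its group. The mean was 1111 ± 242 in Ctrl and 636 ± 64.5 in NE, with a log2 fold change of -0.78 ± 0.17 and an adjusted p of 0.00494 in limma, which passes the p threshold and misses the fold threshold. Across all tested genes, 25.5% were lower and 24.6% higher by adjusted p alone. *VGF* exons are 69.8% GC, a higher share than in 99.7% of the tested genes. When the trend of each library on GC content was removed, the log2 fold change of *VGF* was -0.10 (95% interval -0.30 to 0.10, adjusted p = 0.409), so the lower count was not seen on that scale.

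*CHGB* (ENSG00000089199; chromosome 20, 5911510 to 5925353, plus strand) encodes chromogranin B, a core granin of the granule. It was counted at 188.5, 211.5 and 99.0 in Ctrl and at 121.5, 200.48 and 222.0 in NE libraries. Each group had 1 low library and 2 higher ones, and the groups overlapped almost fully. The log2 fold change was 0.15 with a 95% interval from -0.56 to 0.86 (adjusted p = 0.714 in limma), and it was -0.18 without Ctrl replicate 3, so neither direction was supported.

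*SYP* (ENSG00000102003; chromosome X, 49187815 to 49200218, minus strand) encodes synaptophysin, a membrane protein of small synaptic vesicles. It was counted at 10.5, 19.7 and 14.7 in Ctrl and at 19.8, 19.4 and 6.40 in NE libraries. The NE group held both the highest and the lowest library. The log2 fold change was -0.08 with a 95% interval from -1.28 to 1.11 (adjusted p = 0.908 in limma), which leaves room for a doubling or a halving at this depth. Its sign changed with edgeR, with DESeq2, with the GC trend removed and without Ctrl replicate 2 or NE replicate 3, and it shares 68 exon bases with the antisense gene *SYP-AS1*.

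*CHGA* and *SCG5* were close to the detection limit. *CHGA* (ENSG00000100604; chromosome 14, 92923150 to 92935285, plus strand) encodes chromogranin A, the granin measured in blood as a marker of neuroendocrine tumours. The Ctrl libraries held 5.24, 4.15 and 8.82 normalized counts and the NE libraries 0, 0.969 and 2.74, with no overlap. The 18 reads of Ctrl against the 4 of NE gave a scaled Ctrl over NE ratio of 4.80 (exact 95% interval 1.58 to 19.5, counting error only), and with no filter on low values limma gave a log2 fold change of -1.81 at an adjusted p of 0.0833.

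*SCG5* (ENSG00000166922; chromosome 15, 32641676 to 32697098, plus strand) encodes the chaperone 7B2 of prohormone convertase 2. The Ctrl libraries held 8.38, 6.22 and 0 normalized counts and the NE libraries 1.98, 14.5 and 14.6. NE replicate 1 lay within the Ctrl range and the other 2 above it. With no filter, limma gave a log2 fold change of 1.14 at an adjusted p of 0.448. *SCG5* shares 1129 exon bases with the readthrough gene *ARHGAP11A-SCG5* on the same strand, which is not among the genes of the table. How reads on these shared bases were counted is not known here.

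**Figure D2:**
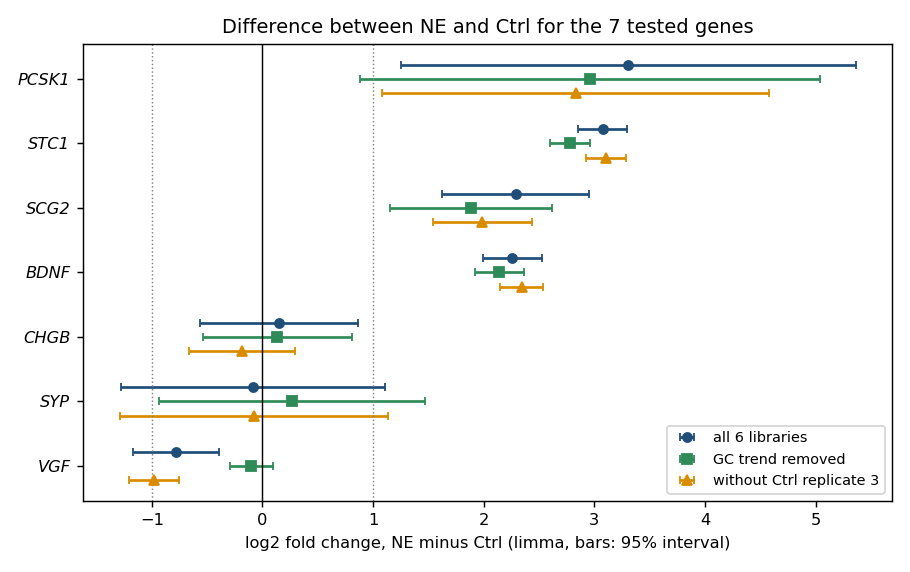
log2 fold change of NE minus Ctrl with its 95% interval from limma (horizontal axis) for the 7 tested genes (vertical axis), with all 6 libraries, with the GC trend of each library removed, and without Ctrl replicate 3. Dotted lines mark the fold criterion of 1. *STC1*, *BDNF* and *SCG2* have intervals above 1 in all 3 fits, and the *VGF* interval spans 0 once the GC trend is removed.

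Over the whole table, removing the trend of each library on GC content left 549 genes called higher and 346 lower, where 1121 and 983 had been called, so the calls of the members were also read on that scale. All 4 upregulated members stayed called there, at log2 fold changes of 2.78 for *STC1*, 2.14 for *BDNF*, 1.88 for *SCG2* and 2.96 for *PCSK1*, whose adjusted p was 0.0361. The exons of these 4 genes have a GC content from 42.3% (*SCG2*) to 46.2% (*BDNF*), below the median of the tested genes. Of all genes tested, 29.7% had every NE library above every Ctrl library and 28.9% had every NE library below. Among the 7 tested members 4 were above and 1 below. The filter shaped this count, since *PCSK1* passed it only through its NE libraries. *CHGA*, with every NE library below every Ctrl library, did not pass it.

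Levels of different genes were compared as FPKM, recomputed here from the reads per kilobase of merged exon, scaled to the reads on genes of each library. In Ctrl, *VGF* (22.9 ± 4.64 FPKM) and *STC1* (19.7 ± 1.13 FPKM) were highest, with overlapping ranges. *BDNF* (2.35 ± 0.288), *CHGB* (2.07 ± 0.711) and *SCG2* (1.62 ± 0.519 FPKM) followed, each overlapping its neighbour. *SCG5*, *SYP* and *CHGA* had mean levels of 0.112 to 0.122 FPKM, and *PCSK1* was lowest at 0.0212 FPKM.

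In NE-treated cells the order changed at the top. *STC1* stood alone at 182 ± 6.75 FPKM and moved from rank 2301 to rank 115 among all genes of the table. *VGF* (14.5 ± 2.07 FPKM) and *BDNF* (12.3 ± 0.433 FPKM) overlapped, *SCG2* (8.76 ± 2.80 FPKM) came below both, and *CHGB* stayed near its Ctrl level at 2.51 ± 0.818 FPKM. *BDNF* moved from rank 9039 to rank 3530, and *SCG2* from rank 10159 to rank 4802. *SCG5*, *PCSK1* and *SYP* overlapped between 0.0526 and 0.423 FPKM, and *CHGA* was lowest at 0.0257 FPKM.

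The 5 granins were also read as shares of their summed FPKM, which was 26.9 ± 5.87 in Ctrl and 26.1 ± 5.89 in NE. *SCG2* made up 5.83%, 6.80% and 5.15% of the sum in Ctrl and 29.9%, 32.8% and 36.5% in NE-treated cells. *VGF* made up 85.6%, 83.7% and 87.7% in Ctrl and 61.9%, 55.3% and 51.9% in NE-treated cells. These shares carry no correction for GC content. With the GC trend removed, the log2 fold changes were 1.88 for *SCG2* and -0.10 for *VGF*. The groups did not overlap for either gene, and each exact two-sided permutation test gave p = 0.1, the smallest that 3 against 3 libraries allow. *CHGB* shares were 6.28% to 8.73% in Ctrl and 8.00% to 10.3% in NE, which overlapped (exact permutation p = 0.2). These are 3 of 5 such tests on shares of 1 sum. No exact two-sided permutation test of 3 against 3 could pass 0.05 before adjustment. Because shares of 1 sum are tied together, the ratio of *SCG2* to *CHGB*, which does not use *VGF*, was read as well. It was 0.767, 0.778 and 0.820 in Ctrl and 3.73, 3.18 and 3.64 in NE-treated cells, with little spread inside a group although each of the 2 genes alone varied between libraries.

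**Figure D3:**
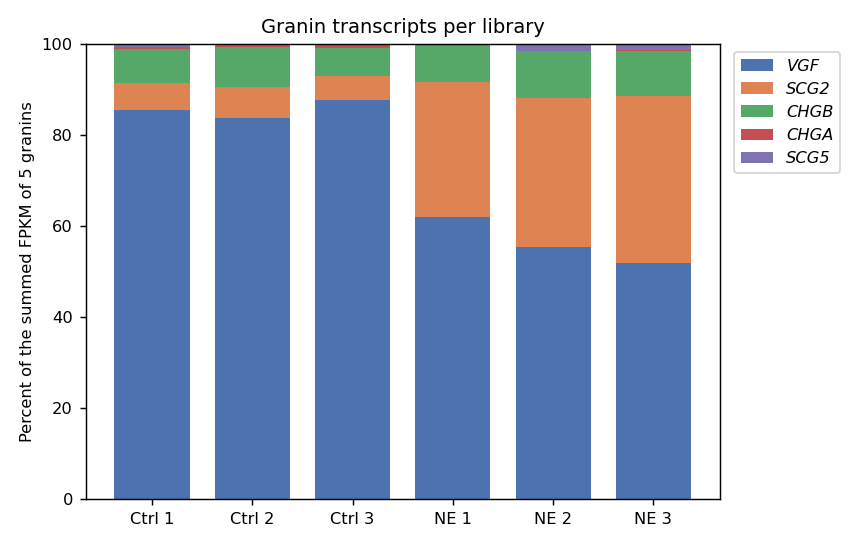
Share of *VGF*, *SCG2*, *CHGB*, *CHGA* and *SCG5* in their summed FPKM (vertical axis, percent) in each of the 6 libraries (horizontal axis). *SCG2* fills 5.15% to 6.80% of the Ctrl bars and 29.9% to 36.5% of the NE bars, while *VGF* falls from at least 83.7% to at most 61.9%. The shares carry no correction for GC content.

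Partners of these genes were read from 9 lists of neurotrophin, granule, peptide hormone, stanniocalcin and neuroendocrine genes, 110 genes in all besides the 9, of which 57 could be tested. Of these, 5 were called higher and 7 lower, against the 7.47% and 6.55% of all genes, and the median log2 fold change was -0.11. With the GC trend removed, 4 of the 12 called genes were still called, *SNAP25*, *PAPPA*, *PROX1* and *GAL*, while the other 8 kept their direction at a log2 fold change under 1 in size, and 3 of these, *NRTN*, *PCSK1N* and *RCOR2*, no longer passed the p threshold (adjusted p of 0.146, 0.170 and 0.0833). *STC2* (1.05) and *PTHLH*, which encodes parathyroid hormone-related protein (-1.09), were not called before and passed both thresholds on that scale. In the receptor list no gene was called. *NGFR*, which encodes the p75 receptor, was counted at 103.7, 77.8 and 78.4 in Ctrl and at 57.3, 56.2 and 39.3 in NE (log2 fold change -0.76, adjusted p = 0.0265 in limma, and -0.11 with the GC trend removed). *SORT1*, which encodes the pro-neurotrophin receptor and sorting protein sortilin, had a log2 fold change of 0.20 (adjusted p = 0.159). *NTRK3* was at 0 in 5 of the 6 libraries, and *NTRK2*, which encodes TrkB, was not analysed here. Among other neurotrophic factors, *NRTN*, which encodes neurturin, was called lower (log2 fold change -1.40, adjusted p = 0.020), a call that was lost when Ctrl replicate 1 (adjusted p = 0.0502) or NE replicate 1 (0.0519) was left out.

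Of the 10 tested prohormone processing enzymes 1 was called. *CPD*, a carboxypeptidase of the trans-Golgi network, was counted at 804, 871 and 1175 in Ctrl and at 2324, 1854 and 1773 in NE (log2 fold change 1.07, adjusted p = 0.000887), and it fell below the fold criterion without Ctrl replicate 1 (0.96) or NE replicate 1 (0.95). Among the other granins, *PCSK1N*, which encodes the proSAAS inhibitor of *PCSK1*'s product, was counted at 422.0, 452.1 and 167.6 in Ctrl and at 91.9, 166.6 and 169.1 in NE. Ctrl replicate 3 lay within the NE range. Its log2 fold change was -1.20 (adjusted p = 0.0258), and the call was lost without Ctrl replicate 1 (adjusted p = 0.0755), Ctrl replicate 2 (0.0813) or NE replicate 1 (0.117).

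Of the 20 tested genes of granule and vesicle machinery, 2 were called in each direction. *SNAP25*, a membrane fusion protein of regulated secretion, was counted at 164, 178 and 176 in Ctrl and at 566, 620 and 706 in NE (log2 fold change 1.85, adjusted p = 3.89e-05). *RAB27B*, a small GTPase of granule docking, had a log2 fold change of 1.33 (adjusted p = 0.00200). *STX1A*, a fusion partner of SNAP25 at the plasma membrane, and *SYNGR2*, a synaptogyrin of the vesicle membrane, were lower at -1.19 (adjusted p = 0.00100) and -1.17 (adjusted p = 5.82e-05). *SNAP25* and *STX1A* thus encode proteins of the same fusion complex, and their transcripts moved in opposite directions. With the GC trend removed, *SNAP25* stood at 1.33 and *STX1A* at -0.55, and *STX1A*, *SYNGR2* and *RAB27B* were no longer called. Of 6 tested neuropeptides and peptide hormones, *GAL*, which encodes galanin, was called lower, from 39.8, 31.1 and 23.5 to 1.98, 11.6 and 5.48 normalized counts (log2 fold change -2.35, adjusted p = 0.00852). It passed the filter on low values only through Ctrl, with a mean of 31.5 there and 6.36 in NE.

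The stanniocalcin list held *STC2*, a paralog of *STC1*, and *PAPPA*, *PAPPA2* and *IGFBP4*. Pappalysin 1, the product of *PAPPA*, is a protease that cleaves the IGF-binding protein encoded by *IGFBP4*, and stanniocalcins inhibit it. *PAPPA* was counted at 28.3, 12.4 and 16.7 in Ctrl and at 96.8, 75.5 and 104.2 in NE (log2 fold change 2.27, adjusted p = 0.000701). *IGFBP4* was counted at 7714, 7798 and 6931 in Ctrl and at 3198, 3246 and 3088 in NE, with a log2 fold change of -1.23 (adjusted p = 4.80e-05) that was -0.59 with the GC trend removed. *STC2* passed the p threshold alone (log2 fold change 0.83, adjusted p = 0.000447). The FPKM of *STC1* was 3.25, 3.24 and 3.75 times that of *STC2* in Ctrl and 18.5, 14.8 and 15.3 times in NE-treated cells.

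Of the 5 tested neuroendocrine lineage factors, *PROX1*, a homeobox factor, was called higher (log2 fold change 1.86, adjusted p = 0.00207), and *RCOR2*, a corepressor of the CoREST family, was called lower (-1.58, adjusted p = 0.00778). *RCOR2* was counted at only 25.1, 29.0 and 28.4 in Ctrl and at 9.88, 6.78 and 9.14 in NE. Like *GAL*, it passed the filter on low values only through Ctrl. *REST*, the repressor that silences neuronal genes outside neurons, was counted at 757, 724 and 966 in Ctrl and at 1591, 1347 and 1427 in NE (log2 fold change 0.84, adjusted p = 0.00114), which misses the fold criterion, and its log2 fold change was 0.41 (adjusted p = 0.00989) with the GC trend removed. No surface or enzyme marker of neuroendocrine cells was called, and 3 of the 4 tested were lower by adjusted p alone, against 25.5% of all genes. That count was 0 of 4 with the GC trend removed and 4 of 4 without Ctrl replicate 3.

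**Figure D4:**
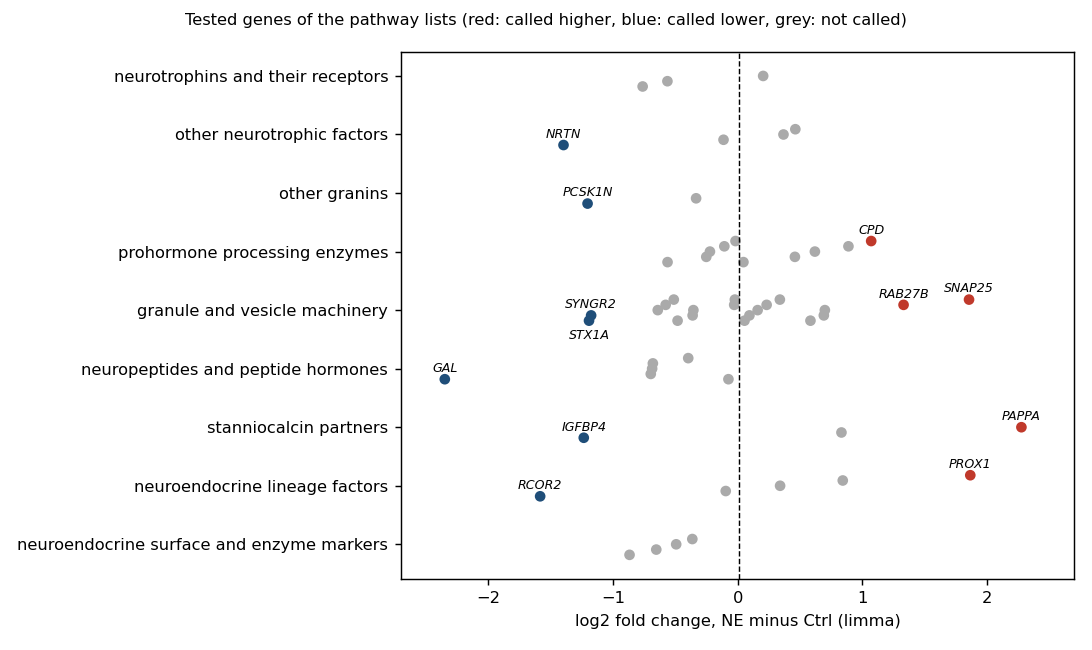
log2 fold change of NE minus Ctrl from limma (horizontal axis) for the 57 tested genes of the 9 lists (vertical axis, points spread within a list for visibility only), with called genes named. The dashed line marks the median of all tested genes, 0.01, and the 5 genes called higher and 7 called lower come from 7 of the lists.

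Likeness of pattern was read for *STC1*, the called member with the highest NE level, as the mean absolute difference between centred log2 values over the 6 libraries. The 3 most alike of the tested genes were *MAP7* (0.075 on the log2 scale), *PDE4D* (0.093) and *ARRDC3* (0.096). *PDE4D*, which encodes a phosphodiesterase that breaks down cAMP, was counted at 180, 146 and 197 in Ctrl and at 1552, 1384 and 1288 in NE. *MAP7*, a microtubule-associated protein, had a log2 fold change of 2.92, and *ARRDC3*, an arrestin-domain adaptor, one of 2.98. As in *STC1*, NE replicate 1 held the highest value in each of the 3 genes. The 3 genes were picked for likeness over these same libraries, so this is not a separate result.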

How the data were processed

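RNA from 6 NCI-H1299 cultures was sequenced (3 Ctrl, 3 NE; NEBNext Ultra libraries). Per the submitters' processing notes, reads were aligned to hg38 with HISAT2 2.0.5 and counted with featureCounts 1.5.0-p3. Although FPKM is named in the methods of the study, the authors deposited a signal on the scale of counts: each library's gene counts over its own size factor. On this scale 100% of the deposited values were whole multiples of 1 read (within 0.01). The table names its columns by letter and number, which were matched to Ctrl and NE by group letter and replicate number. The deposited table also holds gene annotation columns.

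limma 3.58.1 (lmFit and eBayes with trend, R 4.3.3) was run on log2(value + 1) over 15013 genes with a mean of at least 10. edgeR 4.0.16, DESeq2 1.42.0 and voom on the recovered reads were alternatives, as were other pseudocounts, filters and scalings, removal of a natural spline on exon GC content (5 degrees of freedom), a replicate block and each library left out. Exon length and GC came from GENCODE v44 for 25813 genes. Scripts were tested on simulated data.

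The 9 genes and all lists were chosen with earlier results of these data known. Named were the 9 genes, called list genes (up to the 4 largest per list and direction), *REST*, *NTRK2*, *NTRK3*, *NGFR*, *SORT1* and the 3 genes most like *STC1*. A few genes of the lists are not reported here. Other genes were chosen after their values were seen: *STC2*, *PTHLH*, *BDNF-AS* and the lineage, surface, enzyme and line markers. Intervals from reads cover counting error only, since reads carry no molecular identifiers, and no duplicate library was found.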

Additional observations from a re-analysis of the deposited data

How the results depend on the processing

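Over 20 alternatives, log2 fold changes stayed between 2.14 and 2.34 for *BDNF*, 1.50 and 2.51 for *SCG2* and 2.77 and 3.28 for *STC1*, all called. *PCSK1* ranged from 1.83 to 5.51, and from 2.83 to 4.26 with single libraries left out. Removing the GC trend left 549 genes called higher and 346 lower (2 of the listed partners lower) and gave -0.10 for *VGF* and 0.27 for *SYP*. An alternative chosen after seeing the data, the GC correction without Ctrl replicate 3, gave 635 higher, 528 lower, 2 partners lower, -0.13 for *VGF*, -0.19 for *CHGB* and 0.34 for *SYP*. With no fold criterion, 3693 genes were higher and 3828 lower, 13 partners higher and 17 lower, and 1 member, *VGF*, lower. *SYP* also changed sign with edgeR (0.0027) and DESeq2 (0.020). With single libraries left out, *SYP* ranged from -0.34 to 0.41, *CHGB* from -0.18 to 0.41, genes called higher from 816 to 1609 and genes called lower from 777 to 1512, the last without Ctrl replicate 3. The causes of these changes were not tested, apart from the fewer criteria or libraries used.

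With the replicate number as a replicate block, 1049 genes were called higher and 924 lower, and no call of the 9 genes changed. Deviations of same-numbered libraries correlated at -0.163, 0.0799 and -0.151, so the numbers gave no sign of a pairing. At this depth, *PCSK1*, *SCG5*, *CHGA* and *SYP* rest on fewer than 30 reads in any library.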
